A study of Homo sapiens with 21 samples.

Results

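The nuclear-encoded subunits of oxidative phosphorylation were followed in K562 cells, an established human erythroleukaemia line, across 7 groups of libraries. They were chosen as protein-coding genes by the prefixes of their symbols: NDUFA, NDUFB, NDUFC, NDUFS and NDUFV for complex I, SDHA to SDHD for complex II, UQCR for complex III, COX4I, COX5, COX6, COX7 and COX8A for complex IV, and ATP5F1, ATP5M and ATP5P for complex V. Assembly factors named NDUFAF and pseudogenes were left out. This gave 88 of the 61541 genes of the gene table, namely 37 of complex I, 4 of complex II, 9 of complex III, 18 of complex IV, 18 of complex V and 2 read-through genes. The first 4 groups came from a pair of experiments in which one of the enhancer RNAs (eRNAs) made upstream of MYB was overexpressed. They were 34kn with its own 34kn control, and 34kp with its own 34kp control. The other 3 groups were labelled NMYB overexpression, MYB overexpression and empty vector. The design text speaks of MYB and of an N-terminally truncated MYB, and the label NMYB is not spelled out further. Every group had 3 libraries of the same cell line, grown in serum-containing medium. The labels give no vector promoter, clone, dose or time after gene transfer for any group.

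Complexes I to IV pass electrons from NADH and succinate to oxygen and, except for complex II, pump protons across the inner mitochondrial membrane. Complex V, the ATP synthase, makes ATP as the protons flow back. Complexes I, III, IV and V also hold subunits encoded by mitochondrial DNA, so their assembly draws on both genomes, while complex II is wholly nuclear-encoded and is at the same time an enzyme of the TCA cycle. Genes of these subunits are known targets of the transcription factors NRF1, GABPA (an ETS factor) and YY1.

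Gene counts per library summed to between 16552237 and 24462819, and exon bin counts to between 36563252 and 41243796. An exon bin is a stretch of exon between the borders used by any transcript of a gene, and the eRNA experiments were deposited in that form. In the bin files 59 of the 88 genes had bins of their own, 1215 in all, and 29 lay under 27 joined names that pool overlapping genes. MYB, the gene overexpressed by label, had 215, 202 and 217 CPM (counts scaled to a common library size) in the libraries labelled NMYB and 231, 228 and 222 CPM in those labelled MYB, against 216, 210.3 and 219 CPM with empty vector. The libraries labelled MYB lay above empty vector by 0.08 on the log2 scale (SE 0.04, edgeR adjusted p = 0.230) and those labelled NMYB differed by -0.03 (adjusted p = 0.727), so the overexpression named in the labels was not detected in the counts of the MYB gene. In what follows, NMYB and MYB stand for the libraries so labelled. All 12 erythroid markers checked were at 1 CPM or more in the gene table, summing to 2067 to 2448 CPM per library. So were the 6 of them with bins of their own, at 1149 to 1533 CPM. The 12 summed to 2196 to 2204 CPM with NMYB and 2067 to 2193 CPM with MYB, against 2243 to 2448 CPM with empty vector. Of the 12, 2 rose and 1 fell with NMYB, and 1 rose and 3 fell with MYB. Lists of markers of other blood cells, fibroblasts and epithelia summed to at most 93.7 CPM. The T cell list, with 1 of 3 markers at 1 CPM or more and none at 0, summed to 15.2 to 17.0 CPM with NMYB and 12.1 to 14.6 CPM with MYB, against 30.9 to 32.1 CPM with empty vector, with 1 of 1 gene tested lower in both. The granulocyte and monocyte list, with 1 of 4 markers at 1 CPM or more and ELANE at 0, summed to 35.7 to 39.3 CPM with NMYB and 31.9 to 37.1 CPM with MYB, against 23.8 to 28.5 CPM with empty vector, and 1 of 1 gene tested was higher in both. The fibroblast list, with 2 of 4 at 1 CPM or more and none at 0, summed to 9.19 to 9.92 CPM with NMYB and 8.77 to 9.31 CPM with MYB, against 10.8 to 11.2 CPM with empty vector, and 1 of 2 genes tested was lower in both. The megakaryocytic list summed to 29.7 to 36.1 CPM with NMYB and 26.8 to 28.2 CPM with MYB, against 27.1 to 28.8 CPM. Of 2 tested, 1 rose with NMYB, and 1 rose and 1 fell with MYB. The B cell list summed to 3.99 to 4.63, 3.09 to 4.15 and 4.55 to 5.09 CPM in that order. The epithelial list summed to 56.9 to 63.8, 54.9 to 58.4 and 61.0 to 65.7 CPM. In both lists 0 of 1 gene tested was called. The part of these lists in the results was not tested. One library stood apart for the subunit genes. In 34kn control library 1 their median was 0.36 above their mean over the 12 bin libraries on the log2 scale, against 0.07 and 0.14 in the other 34kn control libraries.

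Promoters of 69 of the 88 genes were found in RefSeq's promoter table (GRCh38.p14), 82 promoters of 300 bases, each from 250 bases before to 50 bases after a start. Matches were sought on both strands for NRF1 (GCGCATGC), ETS (CCGGAAGT), YY1 (AAGATGGC), E2F (TTTCCCGC) and MYB (CAACGG, or else TAACGG, or else CAACTG, or else TAACTG), and no string contains another. NRF1 letters were found in 18.3% of the subunit promoters, against 3.05% of all 35116 promoters in the table. ETS letters were in 14.6% of the subunit promoters against 4.14% of all, YY1 letters in 15.9% against 2.89%, and E2F letters in 4.88% against 1.63%. At least 1 of the NRF1, ETS and YY1 strings was in 40.2% of the subunit promoters and 9.36% of all promoters. MYB letters were in 20.7% of the subunit promoters and 25.7% of all promoters, so they were no more frequent here than elsewhere. Among promoters of genes that rose with NMYB (see the comparison with empty vector), 24.3% of 37 held MYB letters, against 19.0% of 42 promoters of genes tested that did not rise. The YY1 letters were in 5.41% of the 37 and in 26.2% of the 42. These are shares of letters, not of occupied sites. The promoters of 4 genes are shown because their genes had among the largest changes in the MYB experiment. NDUFAB1 lies at chr16:23596267-23596566 on the minus strand, COX5B at chr2:97645812-97646111 on the plus strand, ATP5ME at chr4:674227-674526 on the minus strand and COX6B2 at chr19:55354670-55354969 on the minus strand. Capitals mark the matches: a MYB string on the other strand in NDUFAB1, an NRF1 string on the other strand and a pair of ETS strings in COX5B, and a MYB and an NRF1 string in ATP5ME, while COX6B2 held none of the strings.
NDUFAB1: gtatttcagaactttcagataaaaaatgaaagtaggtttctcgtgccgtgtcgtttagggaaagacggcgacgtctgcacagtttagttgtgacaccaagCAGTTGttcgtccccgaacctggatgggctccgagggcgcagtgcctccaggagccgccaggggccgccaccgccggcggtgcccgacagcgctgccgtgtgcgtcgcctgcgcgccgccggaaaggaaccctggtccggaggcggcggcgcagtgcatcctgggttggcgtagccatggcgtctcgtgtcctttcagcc
COX5B: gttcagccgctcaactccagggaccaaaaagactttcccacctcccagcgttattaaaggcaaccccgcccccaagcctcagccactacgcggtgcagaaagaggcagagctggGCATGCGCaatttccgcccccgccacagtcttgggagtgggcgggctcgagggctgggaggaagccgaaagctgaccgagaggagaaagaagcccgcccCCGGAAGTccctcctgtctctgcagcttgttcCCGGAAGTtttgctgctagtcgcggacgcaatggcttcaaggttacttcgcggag
ATP5ME: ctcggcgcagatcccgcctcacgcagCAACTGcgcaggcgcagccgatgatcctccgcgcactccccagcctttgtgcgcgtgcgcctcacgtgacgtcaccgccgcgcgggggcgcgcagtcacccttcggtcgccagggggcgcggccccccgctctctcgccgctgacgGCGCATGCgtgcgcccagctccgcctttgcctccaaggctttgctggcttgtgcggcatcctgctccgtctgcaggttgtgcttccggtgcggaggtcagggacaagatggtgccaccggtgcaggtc
COX6B2: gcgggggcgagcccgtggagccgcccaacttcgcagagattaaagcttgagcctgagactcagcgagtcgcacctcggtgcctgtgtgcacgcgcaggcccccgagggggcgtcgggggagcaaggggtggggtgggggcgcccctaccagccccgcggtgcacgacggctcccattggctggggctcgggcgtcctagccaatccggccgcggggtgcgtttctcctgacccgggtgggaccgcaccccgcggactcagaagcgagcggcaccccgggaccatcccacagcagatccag

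In each complex 1 gene stood above all the others per length in K562 cells. Levels between genes are given here as CPM per kilobase of merged exon length, averaged over the 9 libraries of the gene table with the lowest and highest library. The highest were ATP5F1B, the catalytic beta subunit of complex V, at 720 (702 to 733), and NDUFS5, an accessory subunit of complex I, at 568 (520.0 to 656). UQCRH, the hinge protein of complex III, had 448 (414 to 494), COX6B1, an accessory subunit of complex IV, had 249 (224 to 282), and SDHB, the iron-sulfur subunit of complex II, had 82.7 (78.3 to 86.7). The ranges of these 5 genes did not overlap, so their order held in every library. In complex I the next was NDUFB7 at 161 (124 to 221), and its range overlapped that of NDUFA8 at 120.0 (114 to 127). In complex V, ATP5PB at 137 (134 to 141) stood above ATP5F1C at 114 (109.3 to 120.1). Among genes with bins of their own the same 5 led their complexes in the bin sums, with ATP5F1B at 1096, NDUFS5 at 323, UQCRH at 294, COX6B1 at 212 and SDHB at 73.5 CPM per kilobase. Bin sums can count a read in several bins and are not on the scale of the gene table.

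The lowest detected genes per length in the gene table were NDUFA7 in complex I at 0.469, SDHA in complex II at 2.29, UQCRHL in complex III at 3.42, COX4I2 in complex IV at 0.00906 and ATP5MGL in complex V at 0.00696 CPM per kilobase. NDUFA7 and SDHA, the flavoprotein subunit, overlap other genes. Of the members at 1 CPM or more, the 26 that overlap other genes had a median of 15.0 CPM per kilobase and the 54 that do not had 44.1. How reads over several genes were counted is not given in the sources used here, so levels of overlapping genes may understate their expression. UQCRH and UQCRHL are near-identical copies, and 150 pseudogenes share the prefixes, so reads that match several copies could not be placed with certainty.

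The tissue isoforms of complex IV were almost wholly of the ubiquitous kind. COX4I1 averaged 481 ± 44.9 CPM with NMYB and 438 ± 7.45 CPM with MYB, against 452 ± 8.24 CPM with empty vector (SD, n = 3 each). Its partner COX4I2, known from lung, was at 0 in 8 of the 9 libraries. COX6A1 averaged 50.5 ± 4.97 with NMYB, 45.0 ± 4.18 with MYB and 48.2 ± 4.27 CPM with empty vector, and COX6A2, the heart and muscle form, was at 0 in all 9. COX7A2 averaged 108 ± 4.09 with NMYB, 105 ± 4.84 with MYB and 95.8 ± 2.43 CPM with empty vector, while the muscle form COX7A1 averaged 0.299 with NMYB, 0.350 with MYB and 0.257 CPM with empty vector. NDUFA4, now counted as a complex IV subunit, averaged 180.5 ± 10.8 with NMYB, 163 ± 7.76 with MYB and 159 ± 4.51 CPM with empty vector. Its hypoxia-inducible relative NDUFA4L2 averaged 1.01 with NMYB, 1.11 with MYB and 1.119 CPM with empty vector. Per kilobase of exon, the ubiquitous form of each of these pairs was over 10 times the tissue form in every library.

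**Figure D1:**
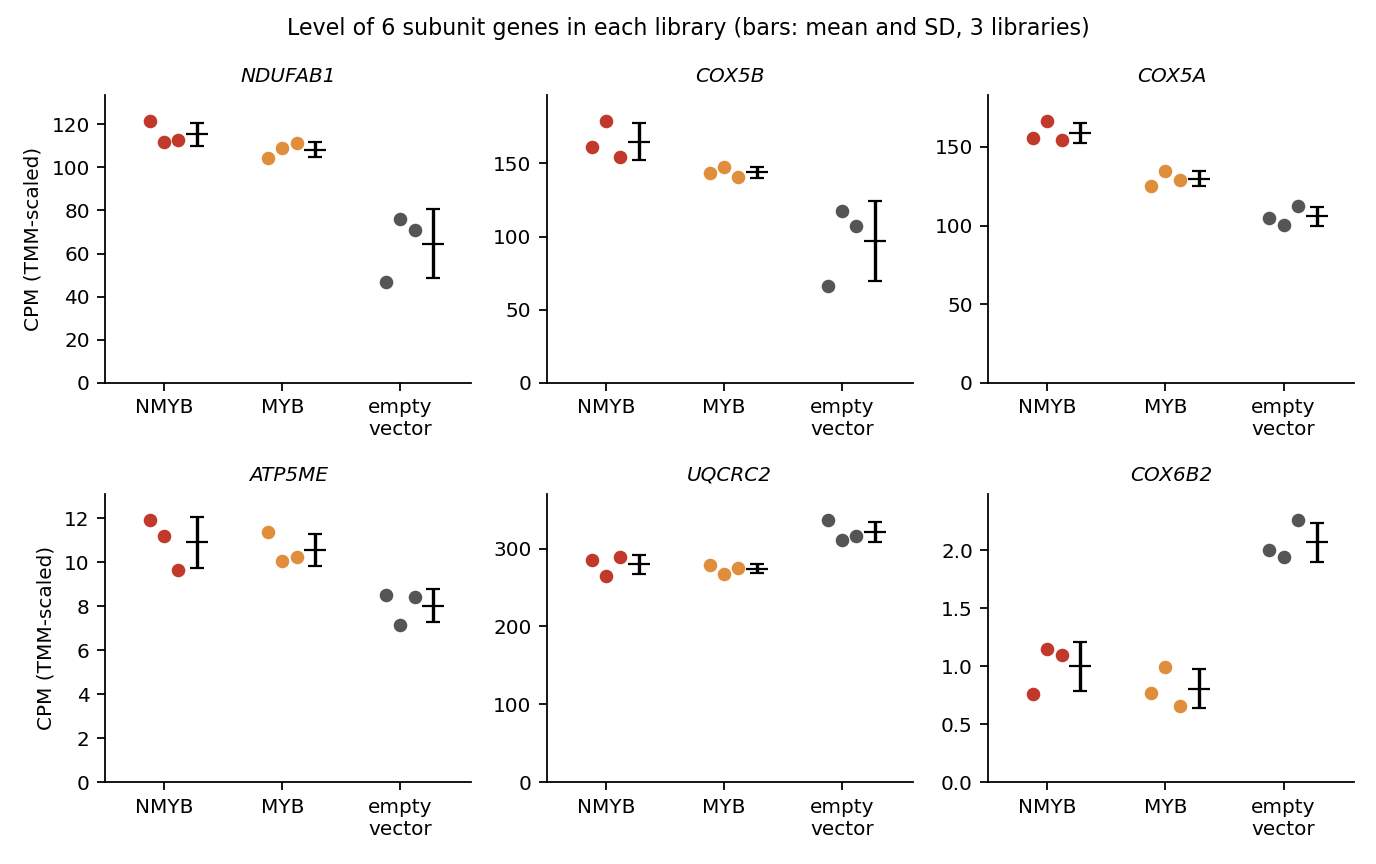
Level of 6 subunit genes in each of the 9 libraries of the gene table (vertical axis, TMM-scaled CPM), with NMYB at the left, MYB in the middle and empty vector at the right of each panel. Points are libraries and bars are the mean with its SD (n = 3). For NDUFAB1, COX5B, COX5A and ATP5ME all NMYB and MYB libraries lie above those of empty vector, and for UQCRC2 and COX6B2 below, although COX5B with MYB did not pass the test (adjusted p = 0.0875).

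The question of the third experiment was which genes respond to the MYB isoforms. With NMYB, 34 of the 81 subunit genes tested (42.0%) rose and 3 fell relative to empty vector, and the rise was found mainly in accessory subunits of complex I and in complex V. Over all genes tested, 12.6% rose and 12.4% fell (edgeR, adjusted p below 0.05). The median change of the 81 genes was 0.11 on the log2 scale, against 0.01 over all genes, and 64 of the 81 had a positive value. The summed level of the 81 genes was 12347 ± 221 CPM with NMYB, against 11430 ± 65.7 CPM with empty vector. All 7 genes not tested were at low counts, among them COX4I2, COX6A2, COX7A1, COX7B2 and ATP5MGL.

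By complex, 19 of 37 complex I genes rose with NMYB and 1 fell, with a median log2 change of 0.17. Of the 30 accessory subunits 17 rose, and of the 7 core subunits 2 rose and 1 fell. In complex V 9 of 17 rose and 0 fell (median 0.19), among them 4 of 5 small membrane subunits and 2 of 3 c ring genes. In complex IV 5 of 14 rose and 1 fell (median 0.10), and in complex III 1 of 9 rose and 1 fell (median 0.06). In complex II 0 of 4 rose or fell, none of the 4 had an unadjusted p below 0.05, and the median was -0.07. SDHB, for example, had 208, 213 and 210.1 CPM with NMYB against 207, 203 and 197 CPM with empty vector, and SDHC, a membrane anchor, had 88.8, 83.5 and 87.8 against 91.5, 94.3 and 91.4 CPM. SDHD, the other anchor, had 79.5, 62.2 and 74.5 against 76.5, 73.5 and 73.2 CPM.

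NDUFAB1, the mitochondrial acyl carrier protein and an accessory subunit of complex I, had 121, 112 and 113 CPM with NMYB against 46.6, 76.2 and 71.1 CPM with empty vector. The rise was 0.84 on the log2 scale (SE 0.16, adjusted p = 0.00654), and all NMYB libraries were above all empty-vector libraries. COX5A, an accessory subunit of complex IV, had 156, 166 and 155 CPM with NMYB against 104, 100.3 and 113 CPM with empty vector, a rise of 0.59 (SE 0.05, adjusted p = 2.81e-07). Its standard error was the smallest of the 6 genes with the largest rises. COX5B, the zinc-binding subunit of complex IV, had 161, 179 and 154 CPM against 66.4, 118 and 107 CPM, a rise of 0.77 (SE 0.20, adjusted p = 0.0312). NDUFB10, an accessory subunit of the membrane arm, had 114, 145 and 112 CPM against 66.8, 91.5 and 83.9 CPM, a rise of 0.61 (SE 0.12, adjusted p = 0.00638). For both genes the groups did not overlap, and empty-vector library 1 was the lowest of the 9.

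ATP5F1D, the delta subunit of the central stalk of complex V, had 40.8, 51.4 and 41.6 CPM with NMYB against 22.8, 35.6 and 32.9 CPM, a rise of 0.55 (SE 0.15, adjusted p = 0.0230). NDUFS6, an accessory subunit of complex I, had 147, 159 and 136 CPM against 79.1, 113 and 114 CPM, a rise of 0.54 (SE 0.13, adjusted p = 0.0138). Empty-vector library 1 was lowest in these genes too. Without it the rises were smaller and passed the test more firmly: 0.65 for NDUFAB1, 0.55 for COX5B, 0.49 for NDUFB10, 0.38 for ATP5F1D and 0.38 for NDUFS6. The calls of COX5B and ATP5F1D did not hold without NMYB library 2 (adjusted p = 0.0927 and 0.118), nor did that of NDUFS6 (0.0992), and that of COX5B was lost without any single NMYB library and without empty-vector library 3 (0.0514). With trends of GC content and length removed, NDUFS6 stood at 0.42 (adjusted p = 0.0638). COX5B did not pass when low genes were not filtered (0.0935) or in a fit of the 6 libraries compared (0.0600). The other genes that rose lay between 0.17 for NDUFB4 and 0.47 for NDUFB11.

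The 3 genes that fell with NMYB belong to different complexes. COX6B2, known as the testis isoform of COX6B1, had 0.757, 1.15 and 1.09 CPM with NMYB against 2.00, 1.95 and 2.26 CPM with empty vector, a change of -1.06 (SE 0.23, adjusted p = 0.00278). Its level was far below that of COX6B1, also per length, which stood at 256, 264 and 251 CPM against 217, 209.3 and 220.1 CPM, and COX6B2 overlaps another gene. UQCRC2, a core protein of complex III, had 285, 265 and 289 CPM against 336, 311 and 317 CPM, a change of -0.20 (SE 0.05, adjusted p = 0.00315). NDUFS1, the large iron-sulfur core subunit of complex I, had 129, 126 and 135 CPM against 144, 140.4 and 144 CPM, a change of -0.14 (SE 0.05, adjusted p = 0.0366). The groups of these 3 genes did not overlap. The change of NDUFS1 was -0.02 (adjusted p = 0.718) once trends with GC content and length were removed, and its call was also lost with library totals, in a fit of the 6 libraries compared and without NMYB library 1 or 2 or empty-vector library 1 or 3.

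With MYB, 11 of the same 81 genes (13.6%) rose and 3 fell relative to empty vector, against 9.62% and 12.7% of all genes tested. The number that rose depended on the processing: it was 20 with library totals and 20 with trends of GC content and length removed. Over all genes tested, 2130 rose with library totals in place of 1522, and the median of all genes was then 0.04. The share of all genes that rose with trends removed is not given here. With TMM scaling the median log2 change of the 81 genes was 0.04, against 0.01 over all genes, and 47 of the 81 were positive. The sum was 11524 ± 129 CPM with MYB against 11430 ± 65.7 CPM with empty vector. In complex I 6 of 37 rose and 0 fell, in complex V 3 of 17 rose and 1 fell, in complex IV 1 of 14 rose and 1 fell, in complex III 1 of 9 rose and 1 fell, and in complex II 0 of 4 rose or fell. One of the 4 complex II genes had an unadjusted p below 0.05. This was SDHA, with 18.4, 18.2 and 17.7 CPM against 23.0, 20.05 and 19.0 CPM (log2 change -0.19, adjusted p = 0.0900). Without MYB library 1, 5 genes rose. The 2 comparisons share the empty-vector libraries, so their values are not independent of each other.

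NDUFAB1 had 104, 109 and 111 CPM with MYB against 46.6, 76.2 and 71.1 CPM with empty vector, a rise of 0.75 (SE 0.16, adjusted p = 0.0120). Without empty-vector library 1 it was 0.57. ATP5ME, the small membrane subunit e of complex V, had 11.4, 10.0 and 10.24 CPM against 8.51, 7.16 and 8.42 CPM, a rise of 0.40 (SE 0.11, adjusted p = 0.0123). Neither gene's groups overlapped. The NDUFAB1 call was lost when low genes were not filtered (adjusted p = 0.0536) and when the NMYB libraries were left out of the fit (0.0647). The ATP5ME call was lost without MYB library 1 (adjusted p = 0.0728) and without empty-vector library 2 (0.0592).

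COX5A had 125, 135 and 129 CPM with MYB against 104, 100.3 and 113 CPM, a rise of 0.29 (SE 0.05, adjusted p = 0.000501). NDUFB1, an accessory subunit of the membrane arm of complex I, had 20.99, 21.8 and 19.6 CPM against 16.8, 16.0 and 18.3 CPM, a rise of 0.29 (SE 0.08, adjusted p = 0.0140), a call lost without empty-vector library 2 (0.0575). In both genes the groups did not overlap. NDUFS3, a core subunit of complex I, had 126, 122 and 130.3 CPM against 95.1, 116 and 105 CPM, a rise of 0.26 (SE 0.06, adjusted p = 0.00404). ATP5F1E, the epsilon subunit of complex V, had 169.9, 165 and 164 CPM against 148, 132 and 147 CPM, a rise of 0.22 (SE 0.05, adjusted p = 0.00383). These groups did not overlap either. COX5B, at 144, 147 and 140.4 CPM with MYB against 66.4, 118 and 107 CPM, did not pass the test (0.57, SE 0.20, adjusted p = 0.0875). The other genes that rose were NDUFC1, NDUFA1, NDUFA2, ATP5MC2 and UQCRQ, by 0.15 to 0.21. In the 6 fits that each left out 1 library, the call of NDUFA2 held in 0 and that of UQCRQ in 2. NDUFC1 held in 3, and NDUFA1 and ATP5MC2 in 4 each.

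Of the 3 genes that fell with MYB, COX6B2 had 0.773, 0.990 and 0.659 CPM against 2.00, 1.95 and 2.26 CPM with empty vector, a change of -1.35 (SE 0.24, adjusted p = 0.000364). UQCRC2 had 279, 268 and 276 CPM against 336, 311 and 317 CPM, a change of -0.23 (SE 0.05, adjusted p = 0.00106). ATP5F1A, the alpha subunit of complex V, had 435, 421 and 422 CPM against 485, 470.2 and 474 CPM, a change of -0.16 (SE 0.04, adjusted p = 0.00581). All 3 MYB libraries were below all empty-vector libraries in each gene, but the ATP5F1A call was lost without MYB library 2 (adjusted p = 0.0507) or empty-vector library 1 (0.0630). With NMYB, ATP5F1A had 439.6, 464 and 437 CPM and did not pass the test (-0.09, adjusted p = 0.0925).

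Set directly against MYB, 3 of the 81 genes rose with NMYB and 0 fell, where 0.518% of all genes rose and 0.626% fell. The median was 0.12 against 0.02 over all genes, and 66 of the 81 values were positive, including all 17 of complex V. At an unadjusted p below 0.05 there were 29 genes. COX5A had 156, 166 and 155 CPM with NMYB against 125, 135 and 129 CPM with MYB, a rise of 0.29 (SE 0.05, adjusted p = 0.0130). NDUFS5 had 345, 359.7 and 323 CPM against 302, 297 and 285 CPM, a rise of 0.22 (SE 0.04, adjusted p = 0.0305). COX6B1 had 256, 264 and 251 CPM against 231, 225 and 224 CPM, a rise of 0.18 (SE 0.04, adjusted p = 0.0468). The groups of the 3 genes did not overlap, but the number of genes that rose was 0 without MYB library 1 or 3 and 1 without MYB library 2 or NMYB library 1. With trends of GC content and length removed the rise of COX6B1 was 0.07 (adjusted p = 0.316), and its call was also lost with 3 other scalings, with no filter on low counts and in a fit of the 6 libraries compared (adjusted p = 0.0512 to 0.119).

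**Figure D2:**
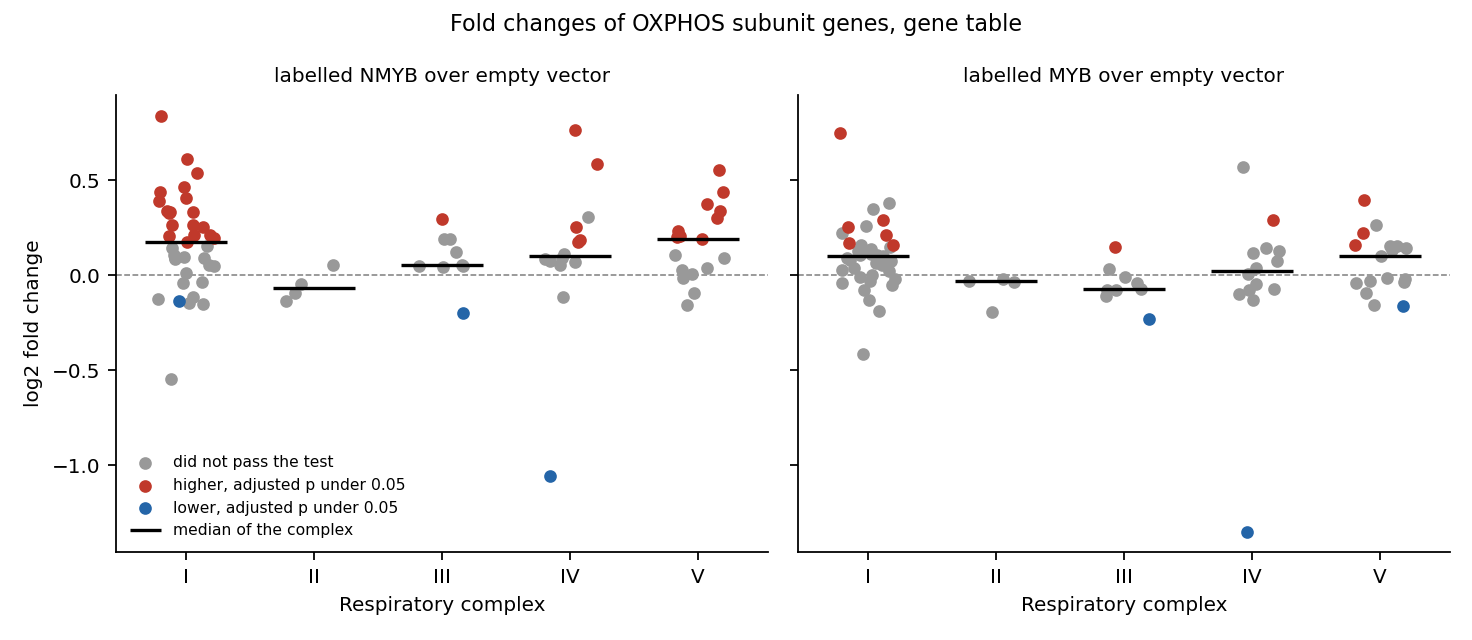
Log2 fold change of each subunit gene in the gene table, by respiratory complex, with NMYB over empty vector at the left and MYB over empty vector at the right. Each point is a gene, red and blue points passed the test upward and downward, and lines are medians. With NMYB 34 genes passed upward and 3 downward, most of them in complexes I and V, with MYB 11 and 3 passed, and no complex II gene passed in either.

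The eRNA experiments asked, per the design text, how the eRNAs alter exon usage, and the bins summed per gene also give levels. With 34kn, 0 of the 54 subunit genes with bins of their own rose or fell relative to the 34kn control (edgeR), as was so for all genes tested, of which 0% rose and 0% fell. The lowest adjusted p among the 54 was 0.0644, 17 had an unadjusted p below 0.05, and DESeq2 called 0 higher and 8 lower. The median log2 change was -0.12, against 0.00 over all genes, and 14 of the 54 were positive. The sum was 10495 ± 7.22 CPM with 34kn and 11153 ± 864 CPM in the 34kn control. The wide spread lay in the controls, with 12102 CPM in library 1 against 10410 and 10948 CPM in the others. Without control library 1 the median was -0.02, 2 genes were called higher and 5 lower, and without control library 2 there were 1 higher and 15 lower. The shares of all genes called in these fits and by DESeq2 are not given here, so these counts cannot be set against them.

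The 3 genes with the smallest p were NDUFS7, COX6B1 and ATP5F1D. NDUFS7, a core iron-sulfur subunit of complex I, had 108, 102 and 105 CPM with 34kn against 175, 139 and 137 CPM in the 34kn control (log2 difference -0.52, SE 0.09, adjusted p = 0.0644). COX6B1 had 186, 178 and 204 CPM against 312, 227 and 271 CPM (-0.52, SE 0.10, adjusted p = 0.0644). ATP5F1D had 127, 129 and 129 CPM against 198, 152 and 156 CPM (-0.40, SE 0.09, adjusted p = 0.0689). Each gene was lower in all 34kn libraries than in all controls, and control library 1 was the highest in each. NDUFA1, an accessory subunit of complex I, had the lowest estimate of the 54, with 21.9, 17.6 and 21.5 CPM with 34kn against 69.8, 22.4 and 33.2 CPM (-1.05, SE 0.42, adjusted p = 0.207). By complex the medians were -0.15 in complex I, -0.02 in II, -0.29 in III, -0.18 in IV and -0.09 in V. SDHB had 177, 171 and 188 CPM with 34kn against 181, 173 and 178 CPM in the control, and its groups overlapped. Under the 27 joined names 0 rose or fell, with a median of -0.18. The 6 erythroid markers with bins of their own summed to 1149 to 1162 CPM with 34kn against 1214 to 1390 CPM in the control. The B cell list summed to 1.08 to 1.29 against 1.32 to 1.69 CPM, and the epithelial list to 83.2 to 88.6 against 67.3 to 78.5 CPM. Sums of the other marker lists overlapped. By edgeR 0 markers were called, and the part of these lists was not tested. Across all 15711 genes with a value, GC content and log2 change had a Spearman coefficient of -0.58, a description across genes whose part in the results was not tested.

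With 34kp, 0 of the 54 genes rose or fell relative to the 34kp control, against 0.63% and 1.72% of all genes. The lowest adjusted p was 0.126, 9 genes had an unadjusted p below 0.05, and DESeq2 called 0 higher and 1 lower. The median was 0.09, against -0.01 over all genes, 42 of the 54 were positive, and the sum was 10011 ± 352 CPM with 34kp and 9348 ± 178 CPM in the control. Without 34kp library 1 the median was 0.04 and 1 gene was called lower, and without 34kp library 3 there were 4 called higher. The shares of all genes in these fits and by DESeq2 are not given here either. NDUFA4L2 had 0.951, 0.383 and 0.132 CPM with 34kp against 1.30, 1.502 and 1.496 CPM in the 34kp control (-1.54, SE 0.48, adjusted p = 0.126). ATP5PB, a subunit of the peripheral stalk of complex V, had 496, 453 and 468 CPM against 413, 413 and 417 CPM (0.18, SE 0.06, adjusted p = 0.165). ATP5F1D had 205, 172 and 164 CPM against 154, 154 and 146 CPM (0.25, SE 0.09, adjusted p = 0.185). None of these groups overlapped. SDHB had 192, 177 and 197 CPM against 172, 182 and 184 CPM, and its groups overlapped. Under the 27 joined names 0 rose or fell, with a median of 0.11. The megakaryocytic list summed to 26.6 to 36.0 CPM with 34kp against 20.3 to 22.3 CPM in the control, and the T cell list to 6.44 to 10.5 against 5.74 to 6.23 CPM. In each, 0 of 2 genes tested were called. Sums of the other marker lists overlapped, with 1 of 2 fibroblast genes tested lower. The part of these lists was not tested.

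**Figure D3:**
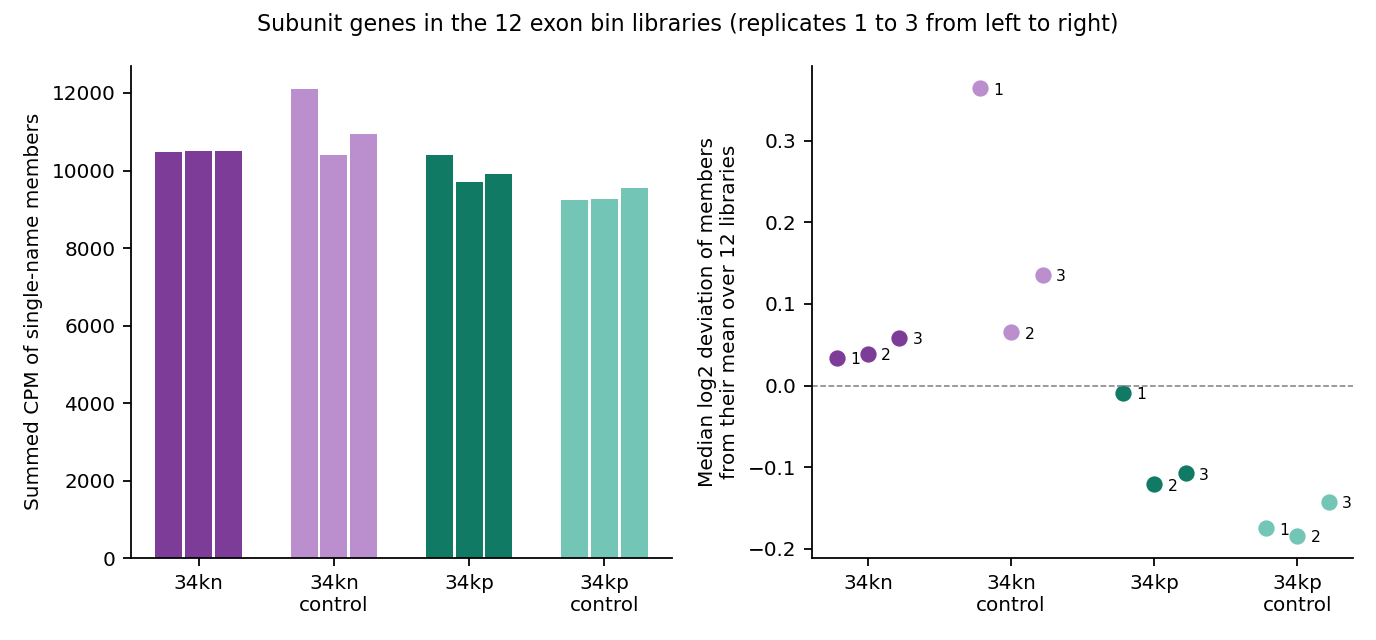
Left, summed TMM-scaled CPM of the subunit genes with bins of their own in each of the 12 bin libraries (bars, replicates 1 to 3 from left to right). Right, the median log2 deviation of these genes from their mean over the 12 libraries (points, numbered by replicate). 34kn control library 1 is highest in both, at 12102 CPM and 0.36, and the 34kp controls are lowest.

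The effects of 34kn and 34kp, each against its own control, were then set against each other in 1 fit of the 12 libraries. The 34kn effect was below the 34kp effect in 5 of the 54 genes and above it in 0, where 3.53% of all genes were lower and 2.83% higher. The median difference was -0.22, against 0.02 over all genes. The 5 genes were UQCR10 and NDUFA2, small subunits of complexes III and I, NDUFS7, ATP5F1D and COX6B1. None of them passed the test in either experiment alone. UQCR10 had 23.2, 26.1 and 23.7 CPM with 34kn against 54.6, 29.9 and 33.5 CPM in the 34kn control, and 36.9, 29.3 and 23.6 CPM with 34kp against 22.8, 22.2 and 24.0 CPM in the 34kp control. The difference of the effects was -1.07 (SE 0.26, adjusted p = 0.0266). NDUFA2 had 42.2, 34.7 and 44.6 CPM with 34kn against 83.8, 42.9 and 59.2 CPM, and 52.7, 36.5 and 34.4 CPM with 34kp against 32.2, 31.4 and 33.5 CPM, a difference of -0.96 (SE 0.27, adjusted p = 0.0476). In both genes control library 1 of 34kn and library 1 of 34kp were the highest of their groups. The differences were -0.68 for NDUFS7 (SE 0.16, adjusted p = 0.0229), -0.65 for ATP5F1D (SE 0.14, adjusted p = 0.0140) and -0.64 for COX6B1 (SE 0.16, adjusted p = 0.0306). For NDUFS7 the 34kp libraries had 151, 140.2 and 109.9 CPM against 107, 126 and 124 CPM in the 34kp control, and for COX6B1 192, 186 and 145 against 148, 161 and 169.6 CPM. With trends of GC content and length removed the difference was -0.24 for ATP5F1D (adjusted p = 0.0772), and UQCR10 (0.0591) and NDUFA2 (0.107) did not pass either, while NDUFS7 at -0.37 and COX6B1 at -0.42 did. Under joined names 4 of 27 were lower and 0 higher. The number lower ranged from 1 to 15 when 1 library was left out, and was 0 with the replicate number as a block. The shares of all genes in those fits are not given here.

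Between the controls of the eRNA experiments, most of the subunit genes differed. Of the 54 genes 35 were higher in the 34kn control than in the 34kp control and 1 was lower, against 18.2% and 18.9% of all genes. The median was 0.36, against -0.02 over all genes, and 48 were positive. In complex I 17 of 23 were higher (median 0.36), in complex IV 8 of 10 (0.45), in complex III 4 of 8 (0.51), in complex V 6 of 11 with 1 lower (0.18), and in complex II 0 of 2 were higher or lower. In complex III the 4 were all among the 5 small subunits. Without 34kn control library 1, 27 genes were higher. The 6 erythroid markers with bins of their own summed to 1214 to 1390 CPM in the 34kn control against 1408 to 1505 CPM in the 34kp control, and of the 6 tested 3 were higher and 1 lower. The granulocyte and monocyte list, with 1 of 4 markers at 1 CPM or more and ELANE at 0, summed to 11.6 to 13.0 CPM in the 34kn control against 20.3 to 23.5 CPM in the 34kp control, and 2 of 2 genes tested were lower. The fibroblast list, with 2 of 3 at 1 CPM or more and none at 0, summed to 27.0 to 35.9 CPM in the 34kn control against 39.7 to 40.03 CPM in the 34kp control, and of 2 tested 1 was higher and 1 lower. The megakaryocytic list summed to 14.5 to 15.6 CPM in the 34kn control against 20.3 to 22.3 CPM in the 34kp control. Of 2 tested, 1 was higher and 1 lower. The B cell list summed to 1.32 to 1.69 against 2.40 to 3.48 CPM, and the epithelial list to 67.3 to 78.5 against 87.3 to 89.1 CPM. In each, 1 of 1 gene tested was lower. The T cell list summed to 6.60 to 8.17 against 5.74 to 6.23 CPM, with 0 of 2 called. The part of these markers was not tested. Any batch cannot be told apart from the experiment here, and this comparison shares its 34kn control libraries with those above.

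ATP5ME had 85.3, 43.0 and 56.6 CPM in the 34kn control against 23.9, 21.8 and 25.2 CPM in the 34kp control, a difference of 1.38 (SE 0.18, adjusted p = 3.38e-05). NDUFS6 had 129, 65.6 and 76.7 CPM against 34.9, 41.2 and 46.9 CPM (1.14, SE 0.20, adjusted p = 0.000379), and COX5B had 261, 130.0 and 151 CPM against 74.7, 79.8 and 96.4 CPM (1.11, SE 0.22, adjusted p = 0.00171). These groups did not overlap, although library 1 of the 34kn control was well above the others in each. NDUFA2 had 83.8, 42.9 and 59.2 CPM against 32.2, 31.4 and 33.5 CPM (0.94, SE 0.19, adjusted p = 0.00159). NDUFA3, a further accessory subunit of complex I, had 78.3, 39.3 and 48.1 CPM against 27.1, 31.0 and 32.2 CPM (0.88, SE 0.20, adjusted p = 0.00345), and the difference was 0.54 (adjusted p = 0.0168) without 34kn control library 1. NDUFA1 had 69.8, 22.4 and 33.2 CPM against 20.4, 22.5 and 22.9 CPM (0.93, SE 0.31, adjusted p = 0.0286). Its groups overlapped, and without 34kn control library 1 the difference was 0.35 (adjusted p = 0.184). ATP5F1A went the other way, with 569, 581 and 562.4 CPM in the 34kn control against 679, 677 and 664 CPM in the 34kp control (-0.24, SE 0.05, adjusted p = 0.00239).

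**Figure D4:**
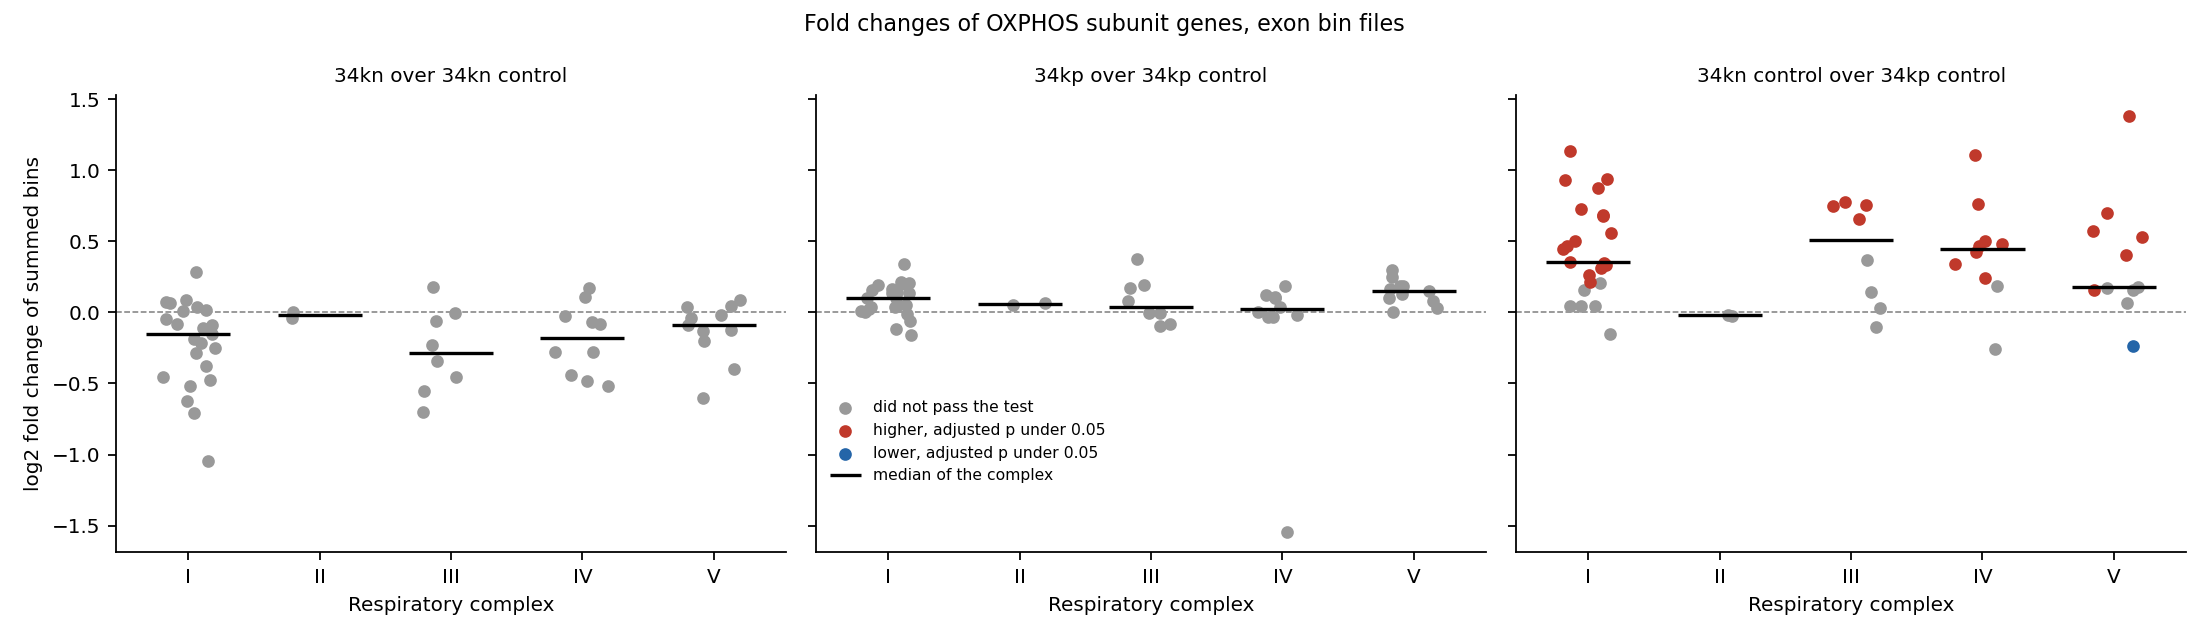
Log2 fold change of summed bins of each subunit gene with bins of its own, by respiratory complex, for 34kn over 34kn control, 34kp over 34kp control and 34kn control over 34kp control. Each point is a gene, red and blue points passed the test upward and downward, and lines are medians. No gene passed in the eRNA comparisons, while 35 were higher and 1 lower between the controls.

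Subunit genes are short, with a median merged exon length of 2615 bases for the 81 genes of the gene table against 4276 over all genes tested. Their log2 change fell with length: the Spearman coefficient over the members was -0.42 with NMYB and -0.40 with MYB against empty vector, where it was -0.22 and -0.10 over all genes. It was -0.43 between the controls, against -0.11 over all genes, and 0.41 with 34kn, against 0.15. For GC content the coefficient over all genes was 0.21 with NMYB, -0.05 with MYB and 0.46 between NMYB and MYB. It was -0.58 with 34kn, 0.11 with 34kp, -0.40 in the difference of the effects and 0.26 between the controls. For the deviation of single libraries it was 0.64 in NMYB library 2 and 0.05 and -0.01 in NMYB libraries 1 and 3. With MYB and empty vector it was -0.46 to 0.14. In the bin libraries it was 0.55, 0.10 and 0.37 in the 34kn control, in replicate order, and -0.30, -0.19 and -0.16 with 34kn. The 34kp control had -0.38, -0.12 and 0.002, and 34kp had 0.46, -0.04 and -0.47. These coefficients describe genes of the same libraries, which are not replicates. The 9 genes under 1000 bases had a median of 0.25 with NMYB, and 6 rose, where 12.6% of all genes of any length rose. The 7 such genes of the bin files were all higher in the 34kn control than in the 34kp control (median 0.76). Of all genes of any length, 18.2% were higher there. With 34kn the median of the 7 was -0.52. Counts and medians over all genes under 1000 bases are not given here, so these values cannot be set against them. The part of length and GC content in the results was not tested beyond a fit with trends of both removed. In that fit 36 genes rose and 4 fell with NMYB in place of 34 and 3, and 20 rose and 7 fell with MYB in place of 11 and 3. Between the controls 31 were then higher and 5 lower in the 34kn control, in place of 35 and 1. Of the calls made without that step, 33 of 37 held with NMYB, 14 of 14 with MYB and 29 of 36 between the controls. The shares of all genes called with trends removed are not given here, so the counts of that fit cannot be set against them.

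**Figure D5:**
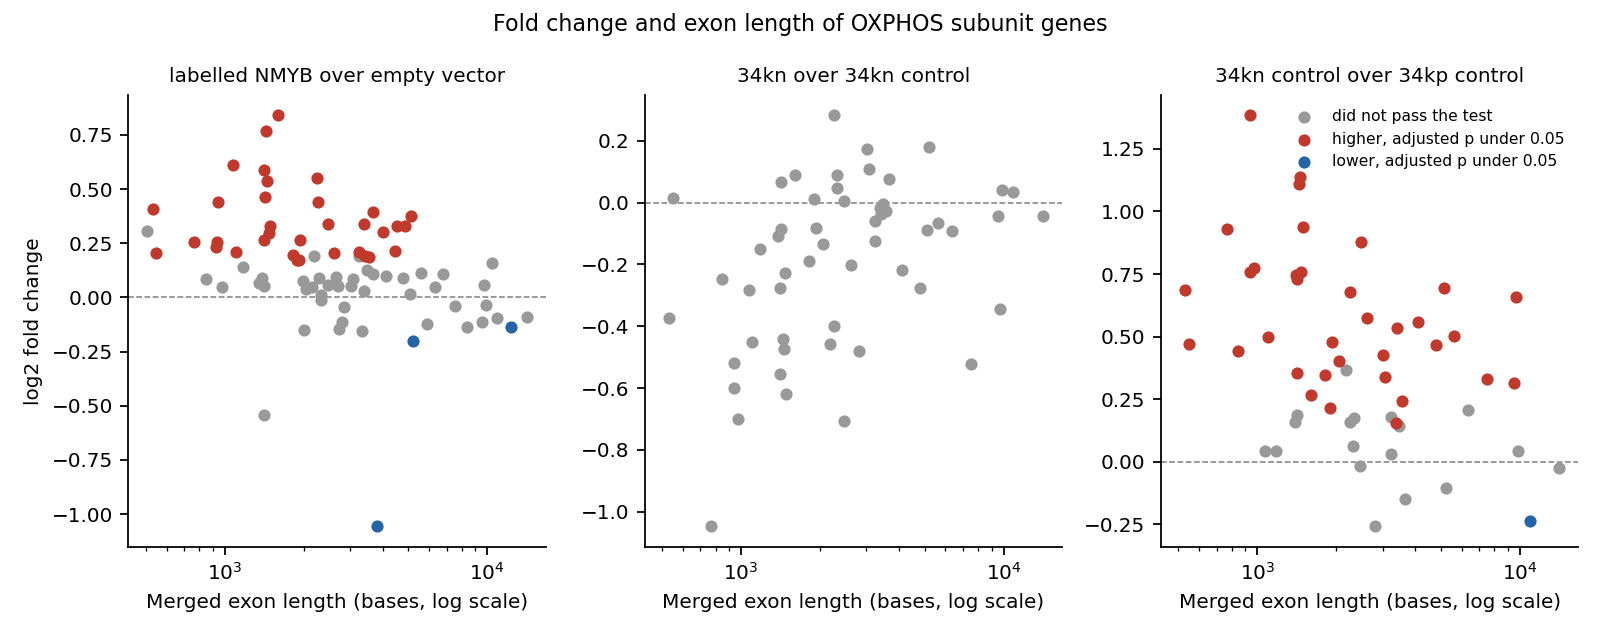
Log2 fold change (vertical axis) of each subunit gene against its merged exon length in bases (horizontal axis, log scale) for NMYB over empty vector, 34kn over 34kn control and 34kn control over 34kp control. Each point is a gene, and red and blue points passed the test upward and downward. Genes under 1000 bases have medians of 0.25 with NMYB, -0.52 with 34kn and 0.76 between the controls.

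Exon usage was tested as the change of a bin relative to its gene. With 34kn, 5 of 749 bins of 52 subunit genes changed relative to the 34kn control, all downward, against 0.794% of all bins tested, and 71 had an unadjusted p below 0.05. By gene, 3 of the 52 passed with p-values combined by Simes' method, against 7.24% of all genes. Neither share was above that of all bins or all genes tested. The 3 genes were NDUFS5, ATP5F1C and UQCRC1, while SDHC (adjusted p = 0.0528) and ATP5F1B (0.102) did not pass by Simes' method. Bin 5 of 6 of NDUFS5 held 6.04%, 5.23% and 5.80% of the counts of the gene with 34kn, against 11.3%, 7.12% and 7.99% in the control, a relative log2 change of -0.45 (adjusted p = 0.0103). Bin 7 of 25 of ATP5F1C, the gamma subunit of complex V, held 4.54%, 3.80% and 4.64% against 8.91%, 5.31% and 6.58% (-0.48, adjusted p = 0.0131). Control library 1 had the highest share in both. Bin 25 of 36 of UQCRC1, a core protein of complex III, held 2.34%, 1.84% and 2.39% against 4.07%, 2.22% and 3.82% (-0.44, adjusted p = 0.0267), and its groups overlapped. Bin 4 of 19 of SDHC held 3.96%, 2.87% and 3.71% against 6.37%, 4.20% and 5.99% (-0.47, adjusted p = 0.0417). Bin 32 of 34 of ATP5F1B held 2.47%, 2.67% and 3.03% against 5.01%, 3.04% and 3.53% (-0.35, adjusted p = 0.0431). Of these bins 0 passed without 34kn control library 1, and 34 bins of subunit genes passed without 34kn control library 2. The shares of all bins in those fits are not given here, so the counts cannot be set against them.

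Under joined names 9 of 740 bins changed with 34kn, 8 of them downward, but part of these counts belongs to the overlapping gene. They were bins 19 to 22 of the name that joins NDUFS3 and PTPMT1 (relative log2 changes of -0.72, -0.73, -0.59 and -0.48), bin 29 of UQCR11 (-0.74), bin 63 of NDUFA9 (-0.51), bins 33 and 34 of ATP5PO (-0.55 and -0.60) and bin 25 of ATP5MG (0.70). With 34kp, 0 of 747 bins changed, against 0.00862% of all bins and 0.0853% of all genes by Simes' method. At an unadjusted p below 0.05 there were 22 bins, and limma's diffSplice called 0. Under joined names 0 of 731 bins changed.

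Other genes of the respiratory system were counted in the same comparisons, where 12.6% of all genes rose and 12.4% fell with NMYB and 9.62% rose and 12.7% fell with MYB. Of 77 genes of mitochondrial ribosomal proteins tested, which translate the subunits encoded by mitochondrial DNA, 38 rose and 0 fell with NMYB (median 0.19), and 27 rose and 0 fell with MYB (median 0.12). MRPL20, for instance, rose by 0.45 (SE 0.05) with NMYB and by 0.35 (SE 0.05) with MYB. Of the 13 subunit genes of mitochondrial DNA, 7 fell and 1 rose with NMYB (median -0.14), and 6 fell and 2 rose with MYB (median -0.13). MT-CO2, a catalytic subunit of complex IV, changed by -0.35 (SE 0.05, adjusted p = 5.45e-05) with NMYB and by -0.40 (SE 0.05, adjusted p = 1.01e-05) with MYB.

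Of 14 assembly factors of complex I, 3 rose with NMYB and 2 with MYB, and 0 fell. Of 29 assembly factors of complexes II to V, 7 rose and 0 fell with NMYB, and 6 rose and 1 fell with MYB. TMEM70, an assembly factor of complex V, rose by 0.57 (SE 0.08, adjusted p = 2.30e-05) with NMYB and by 0.49 (SE 0.08, adjusted p = 9.74e-05) with MYB. Of the 16 enzymes of pyruvate dehydrogenase and the TCA cycle 3 fell and 0 rose in each comparison. Among 13 regulators of mitochondrial biogenesis, 3 rose and 1 fell with NMYB and 2 rose and 1 fell with MYB. The gene that fell was PPARGC1B, a coactivator, with a log2 change of -0.40 (SE 0.05) with NMYB and -0.22 (SE 0.05) with MYB. TFB2M, a mitochondrial transcription factor, rose by 0.24 with NMYB and by 0.23 with MYB (SE 0.06 each). Of 8 carriers 2 rose with NMYB, and 1 rose and 1 fell with MYB. The shares of all genes were 12.6% and 12.4% with NMYB and 9.62% and 12.7% with MYB. Against them the counts of complex I assembly factors, TCA cycle enzymes, regulators and carriers are too small to stand apart. Between NMYB and MYB, edgeR called 0 genes in each of these lists, with 12 of the 77 ribosomal protein genes at an unadjusted p below 0.05 and 1 called higher by DESeq2.

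In the eRNA experiments the lists were counted over genes with bins of their own. With 34kn, edgeR called 0 genes in any of these lists. Of the 61 ribosomal protein genes 30 had an unadjusted p below 0.05, DESeq2 called 5 higher and 8 lower, and the median was -0.07. Of 8 mitochondrially encoded subunits 6 had an unadjusted p below 0.05, DESeq2 called 3 higher, and the median was 0.21. With 34kp, MT-ND1 and MT-ND3, complex I subunits, rose by 0.47 each (SE 0.08 and 0.09, adjusted p = 0.0119 and 0.0233), as did the coactivators PPRC1 by 0.44 (SE 0.09, adjusted p = 0.0349) and PPARGC1B by 0.42 (SE 0.09, adjusted p = 0.0385). The other lists of mitochondrial genes had 0 calls by edgeR with 34kp, and DESeq2 called 6 of the 61 ribosomal protein genes higher. By edgeR 0.63% of all genes rose and 1.72% fell with 34kp, and the shares by DESeq2 are not given here. In the difference of the effects, 9 of the 61 ribosomal protein genes and 4 of 10 regulators were lower and 1 ribosomal protein gene was higher. Also lower was 1 gene each of the complex I assembly factors, the mitochondrially encoded subunits and the carriers. Of all genes tested, 3.53% were lower and 2.83% higher there. Between the controls 35 of the 61 ribosomal protein genes were higher and 3 lower in the 34kn control (median 0.34). Of the 8 mitochondrially encoded subunits 6 were lower and 1 was higher (median -0.48). Complex I assembly factors had 7 of 14 higher and 0 lower, and those of complexes II to V had 7 of 19 higher and 3 lower. Of 15 enzymes of pyruvate dehydrogenase and the TCA cycle 6 were higher and 1 lower. The same held for 6 and 1 of 10 regulators and 3 and 1 of 7 carriers. Of all genes tested, 18.2% were higher and 18.9% lower.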

How the data were processed

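RNA-seq was made from K562 cells in 21 libraries, per the labels' protocols from total RNA extracted with TRIzol and with a TruSeq RNA kit. The authors deposited raw counts of exon bins for the 12 libraries of the eRNA experiments and 1 table of raw gene counts for the other 9. Per the submitters' processing notes, Trimmomatic 0.93, STAR 2.7.10a, HISAT2 2.2.1 and featureCounts 2.0.1 were used with GRCh38. The annotation release, the strand setting and how reads that fit several places or genes were handled are not given in the sources used here, so antisense and overlapping genes cannot be told apart. Summary lines at the end of each bin file, which belong to no bin, were dropped before scaling and testing. They held 29.5% to 32.8% of the counted items for reads outside bins, 4.46% to 10.5% for poor alignments and 0.0155% to 0.0225% for ambiguous ones.

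The members, the gene lists and the tests were chosen with earlier results of these data known. Bin counts were summed per gene name, and genes under a joined name were counted apart. Gene counts and bin sums were each tested with edgeR 4.0.16 in R 4.3.3 (robust quasi-likelihood F test, two-sided, after TMM scaling and the filterByExpr filter at a count of at least 10) over all genes, and genes with a p below 0.05 after Benjamini-Hochberg adjustment were called. The 3 groups of the gene table were fitted together, each eRNA experiment on its own 6 libraries, and the difference of effects and of controls on all 12. Exon usage was tested with edgeR's diffSpliceDGE. DEXSeq, which the design text mentions, was not run here. On simulated counts for MYB against empty vector, 100% of genes changed 2-fold upward and 86% of those changed 1.5-fold upward were recovered. Of the 15823 genes run, 12 unchanged ones were called. The simulation gave all genes 1 fixed spread and changed only genes with high counts. Changes below 1.5-fold, which most called subunit genes of the MYB experiment had, were not simulated, so their recovery is not known. Changes are on the log2 scale, each with its standard error (SE) from the fit, levels are TMM-scaled CPM with the SD over 3 libraries, and levels set between genes are CPM per kilobase of merged exons. Correlations are across genes, which are not replicates. Whether the replicates of a group were separate cultures is not stated in the labels, and p-values therefore cover only the spread between these libraries, which may be technical.

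All members could be named. Values per library are given for up to 6 called members per direction with the largest log2 fold change, or for the 3 with the smallest p where fewer than 3 were called, and for complex II, the isoform pairs, the highest and lowest members per length and called bins. Other lists are given by counts and by up to 3 genes with the smallest p. Alternatives covered scaling, the filter, DESeq2 1.42.0, limma 3.58.1 for exon usage, trends of GC content and length, the libraries in the fit, the largest bin per gene, the replicate number as a block, and each library left out.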

Additional observations from a re-analysis of the deposited data

Results flagged for a closer look

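In 5 subunit genes the effect of 34kn against its control differed from the effect of 34kp against its control by edgeR's interaction test over the 12 bin libraries. The log2 differences of the effects were -1.07 for UQCR10 (adjusted p = 0.0266), -0.96 for NDUFA2 (adjusted p = 0.0476), -0.68 for NDUFS7 (adjusted p = 0.0229), -0.65 for ATP5F1D (adjusted p = 0.0140) and -0.64 for COX6B1 (adjusted p = 0.0306). In each gene the estimate was negative with 34kn and positive with 34kp, and neither estimate passed the test on its own. For UQCR10 the effects were -0.70 with 34kn (adjusted p = 0.0992) and 0.37 with 34kp (adjusted p = 0.202). Of the 5 calls, 0 held under all alternatives tried and 1 held when each library in turn was left out.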

How the results depend on the processing

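No call of a subunit gene changed sign under any alternative. Of the calls of single genes, 20 of 37 with NMYB, 5 of 14 with MYB, 0 of 3 between NMYB and MYB, 0 of 5 in the difference of the eRNA effects and 20 of 36 between the controls held under every alternative. The cause of the changes below was not tested, and counts are given without the shares of all genes called under the same alternative. With NMYB against empty vector, 3 genes fell and 5 with the replicate block, 24 to 33 rose with 1 library left out in place of 34, and the median of 0.112 was 0.0729 with no filter on low counts and 0.106 to 0.143 with 1 library left out. With MYB, 11 genes rose, and 20 with library totals, 19 with the replicate block, 20 with GC and length trends removed, 22 with trends removed and the block, and 5 to 13 with 1 library left out. The 3 that fell became 6 with the block, 7 with trends removed and 8 with both, and the median of 0.0408 became 0.0533 with upper-quartile scaling, 0.0779 with library totals and 0.0349 to 0.0622 with 1 library left out. Between NMYB and MYB, 3 genes rose, and 5 by DESeq2, 17 with the replicate block, 9 with trends removed, 11 with both, 1 in a fit of 6 libraries and 0 to 4 with 1 library left out. Its median of 0.120 became 0.0806 with no filter, 0.0656 with trends removed, 0.0639 with both and 0.0720 to 0.137 with 1 library left out. With 34kn, 0 fell, and 8 by DESeq2, 10 with no filter, 3 with the largest bin per gene and 0 to 15 with 1 library left out, while 0 to 2 then rose. With 34kp, 0 rose, and 1 with no filter, 1 in a fit of 12 libraries and 0 to 4 with 1 library left out. With 34kp 0 fell, and 1 by DESeq2, 1 with no filter, 2 with trends removed, 1 with both, 1 in a fit of 12 libraries and 0 to 1 with 1 library left out. In the difference of the effects 0 were higher, and 1 by DESeq2, 2 with trends removed, 2 with both and 0 to 1 with 1 library left out. The 5 that were lower became 9 by DESeq2, 18 with no filter, 0 with the replicate block, 3 with trends removed and the block, 3 with the largest bin and 1 to 15 with 1 library left out. Between the controls the 1 lower gene became 2 with upper-quartile scaling, 2 with library totals, 2 by DESeq2, 5 with trends removed, 4 with both and 0 with the largest bin, and 27 to 35 were higher with 1 library left out. In exon usage with 34kn, 5 bins became 2 with the replicate block and 0 to 34 with 1 library left out, and 3 genes became 0 to 14. Summed levels with library totals in place of TMM were 10264 CPM for 34kn, 9734 for the 34kp control and 11264 for empty vector. The share of higher among all calls moved with library totals to 56.8% with MYB (43.1% with TMM), to 25.3% between NMYB and MYB (45.3%), to 15.5% with 34kp (26.8%), to 59.8% in the difference of the effects (44.6%) and to 33.0% between the controls (49.1%), where the median of all genes shifted to -0.11. Upper-quartile scaling gave 54.9% in the difference of the effects, and scaling as in DESeq2 gave 34.9% between NMYB and MYB. Same-numbered libraries deviated together with correlations of -0.167 to 0.0994, and in no comparison were all 3 above 0.1. These correlations are weak but cannot exclude a pairing of samples by replicate number. GC content and length were known for 97.6% of the genes of the gene table and 97.4% of the bin sums. Depth limits the low tissue isoforms, such as COX4I2 and COX6A2, which could not be tested.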

Other observations

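Among the promoters of the subunit genes the share with at least 1 of the NRF1, ETS and YY1 strings was 64.7% of 17 in complex V, 57.1% of 7 in complex III, 33.3% of 39 in complex I, 2 of 3 in complex II and 3 of 15 in complex IV. It was 29.7% of the 37 promoters of genes that rose with NMYB and 52.4% of the 42 promoters of genes that were tested and did not.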
